A study of Schizosaccharomyces pombe with 2 samples.

Results

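The genes described are the 9 full-length ribosomal RNA (rRNA) genes of the ribosomal DNA (rDNA) arrays at both ends of chromosome III in fission yeast, Schizosaccharomyces pombe, of 12606 annotated genes in all. They were chosen by identity: 3 genes of 18S rRNA (SPRRNA.43, SPRRNA.44 and SPRRNA.46), 3 of 5.8S rRNA (SPRRNA.50, SPRRNA.51 and SPRRNA.52) and 3 of 28S rRNA (SPRRNA.47, SPRRNA.48 and SPRRNA.49). Every peak on III that reached into the first 25 kb or the last 13.9 kb was taken with them, which gave 5 of the 664 peaks on chromosomes I, II and III. Binding of Cnd2, the kleisin subunit of the condensin complex, had been mapped by ChIP-seq, the sequencing of immunoprecipitated chromatin. The groups were an anti-HA Cnd2 ChIP and its input, 1 library each, both from strain YUK421 with Cnd2 fused to an HA tag. All cells were held in mitosis with 5 µg/mL thiamine and fixed with 0.5% formaldehyde for 30 min at 25 °C. With 1 library a group, nothing below was checked against replicates or tested. Per the file headers the ChIP library kept 25933013 of 39685815 fragments and the input library 54272630 of 60564558 after duplicate removal.

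RNA polymerase I reads each rDNA unit as 1 long precursor in the order 18S, 5.8S, 28S, from which internal spacers are cut out. The 18S rRNA is the core of the small ribosomal subunit, and the 28S and 5.8S rRNAs belong to the large subunit. A long spacer separates one precursor from the next. It holds replication fork barriers and sites where the protein Reb1 stops polymerase I. Condensin is the ring-shaped complex that compacts mitotic chromosomes, and in yeasts it is known to be needed for the arrays to condense and separate in anaphase.

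The copies in the reference have the same letters in their genes and nearly the same in their spacers, which sets how far a peak can be given to 1 copy. The 3 copies of the 18S gene (1842 bp), of the 5.8S gene (165 bp) and of the 28S gene (3485 bp) differed at 0 bases within each kind. The 5.8S gene, the shortest member, is shown whole from III:9842-10006, minus strand. The 28S gene is shown from base 3101 to base 3400 (III:6142-6441, minus strand), because both wide left peaks had their summit at its base 3173, and the 21 capitals are centred there. Sequences are from RefSeq, build ASM294v3, and were placed by its own annotation.
5.8S rRNA gene, SPRRNA.50: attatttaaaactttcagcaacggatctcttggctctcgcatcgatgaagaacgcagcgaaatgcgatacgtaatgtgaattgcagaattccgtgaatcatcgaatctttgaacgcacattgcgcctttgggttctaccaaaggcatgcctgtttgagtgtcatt
28S rRNA gene near its 3′ end, SPRRNA.47: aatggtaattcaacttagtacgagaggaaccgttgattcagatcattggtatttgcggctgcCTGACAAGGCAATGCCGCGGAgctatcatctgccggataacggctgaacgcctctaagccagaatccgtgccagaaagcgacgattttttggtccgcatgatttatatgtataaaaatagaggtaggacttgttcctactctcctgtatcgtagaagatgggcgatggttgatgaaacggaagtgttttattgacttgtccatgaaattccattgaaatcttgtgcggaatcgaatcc

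The spacer past the 28S gene is shown next, because the summit of the right array lay in it. The spacers of the left array had the same 4666 bases. The right spacer was 4685 bp long and matched them at 4648 bases, with 12 mismatches and 31 gap bases (99.1% identity). Bases 281 to 520 past the right 28S gene (III:2447478-2447717, plus strand) and the matching bases 271 to 510 past SPRRNA.47 (III:5547-5786, minus strand) hold a repeated motif, AGGGTAA, given in capitals. These letters are part of the site known for Reb1 in fission yeast.
Right spacer, past SPRRNA.49: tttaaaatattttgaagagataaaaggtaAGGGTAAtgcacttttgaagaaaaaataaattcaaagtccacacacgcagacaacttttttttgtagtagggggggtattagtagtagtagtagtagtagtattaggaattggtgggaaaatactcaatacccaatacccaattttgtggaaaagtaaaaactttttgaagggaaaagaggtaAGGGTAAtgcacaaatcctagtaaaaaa
Left spacer, past SPRRNA.47: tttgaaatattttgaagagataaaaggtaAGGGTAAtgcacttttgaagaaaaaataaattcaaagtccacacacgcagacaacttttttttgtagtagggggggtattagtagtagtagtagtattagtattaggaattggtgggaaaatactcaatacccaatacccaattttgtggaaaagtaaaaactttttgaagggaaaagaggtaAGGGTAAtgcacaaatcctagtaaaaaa

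Cnd2 peaks covered all 9 rRNA genes from end to end. At least 1 bp of a peak overlapped 9 of 9 members, and 9 of 9 lay wholly under peaks. Over all 12606 annotated genes the shares were 11.3% overlapped and 2.65% wholly covered. The 9 genes share 3 peaks, because each wide peak spanned the 18S, 5.8S and 28S genes of 1 unit, so they do not count as 9 separate observations. The 3 peaks are not independent either, because the genes have the same letters in every unit and a fragment within them fits all copies. The deposited list gives a height only at the summit of each peak, so the 18S and 5.8S genes, which held no summit, have no height of their own.

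In the right array 1 peak of 13257 bp (III:2439592-2452848) covered SPRRNA.46, SPRRNA.52 and SPRRNA.49, the whole spacer and 96.5% of the 1001 bp stub of the next 18S gene, SPRRNA.45. In the left array a peak of 12326 bp (III:30-12355) covered SPRRNA.43, SPRRNA.50 and SPRRNA.47, the spacer past them and 97.9% of the 1390 bp stub SPRRNA.42. Another wide peak, of 9785 bp (III:13488-23272), covered SPRRNA.44, SPRRNA.51 and SPRRNA.48. The left array held a pair of narrow peaks besides, of 287 bp (III:12882-13168) and 835 bp (III:23683-24517), both upstream of an 18S gene. The list's other 659 peaks had a median width of 522 bp.

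The 5 peaks ran over 36490 bp, which was 6.17% of the length of all peaks on 0.290% of the genome. They covered 99.4% of the right array and 94.5% of the left array, 100% of the 16476 bp in the 9 genes and 92.9% of the 19048 bp in the spacers and outer flanks. The internal spacers, of 412 bp between 18S and 5.8S and of 300 bp between 5.8S and 28S, were covered whole in every unit. The uncovered stretches inside the left array, of 526, 319 and 410 bp, were all upstream of SPRRNA.43 or SPRRNA.44. They were not seen upstream of every 18S copy. The left spacer upstream of the stub SPRRNA.42 has the same letters and was covered over 100%, against 81.9% upstream of SPRRNA.43. In the right array the spacer upstream of the stub SPRRNA.45 was covered over 100%, and the flank upstream of SPRRNA.46 over 96.9%.

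**Figure D1:**
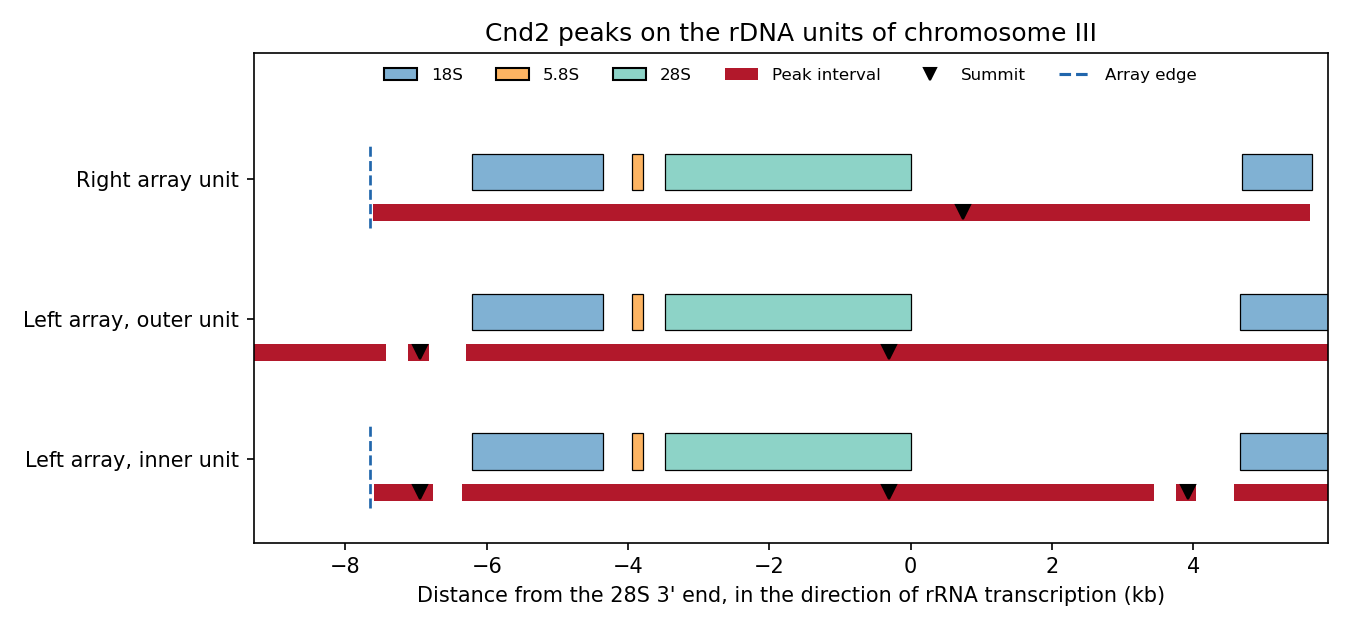
Peak intervals (red), summits (black triangles) and rRNA genes (coloured boxes) of 3 rDNA units, against the distance from the 28S 3′ end in kb, in the direction of rRNA transcription; the dashed line marks where the repeat sequence ends in the reference. The wide left peaks have their summits in the 28S gene 312 bp before its 3′ end, the narrow left peaks have theirs 744 and 747 bp upstream of an 18S gene, the right summit lies 740 bp past the 28S gene, and the outermost peaks stop 45 and 61 bp short of the array edges.

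The outer edges of the peaks lay within 61 bp of the ends of the repeat sequence. Upstream of the outermost 18S genes the repeat sequence went on for 1447 bp in the right array (1442 identical bases, 3 mismatches and 5 gap bases) and for 1448 bp in the left array (1447 identical bases and 1 mismatch). The right peak began 45 bp inside that edge, and the second narrow peak of the left array ended 61 bp inside it. At the chromosome ends the peaks left 35 bp uncovered on the right and 29 bp on the left. The next peak inwards was 19.4 kb from the right rDNA peak, with a pileup of 1183 over a background of 771 (1.53-fold). On the left it was 17.1 kb from the second narrow peak, with 1307 over 804 (1.62-fold).

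Summits recurred at the same bases, or within 3 bp, between the full units of the left array. In SPRRNA.47 and in SPRRNA.48 the summit lay 312 bp before the 3′ end, so the summits were 10870 bp apart, the length of the unit in the reference. The narrow peaks had their summits 747 bp upstream of the 18S gene SPRRNA.43 and 744 bp upstream of SPRRNA.44, and these were 10867 bp apart. With identical letters in both copies, a fragment from either fits both, so the repeat of a position is not independent evidence of that position. The narrow summits did not recur at the other copies of the spacer letters. The spacer upstream of the stub SPRRNA.42 lay wholly under the wide peak at SPRRNA.47 and held no summit. In the right array the base matching the first narrow summit lay under the wide peak.

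In the right array the summit lay 740 bp past the 3′ end of SPRRNA.49, in the spacer and 1052 bp downstream of the base where the summits of the wide left peaks fell. That left 28S base lay under the right peak in SPRRNA.49 too, and the base matching the right summit, 722 bp past the 28S genes of the left array, lay under the left wide peaks. Within 208 bp of the right summit, the fragment length of the library, the right spacer had 13 differing or gap bases from the left ones, the nearest 59 bp away. The list gives no height at these matching bases. A summit is the highest pileup of its peak, so the left bases had at most 60888 and 60950 fragments. Both limits are below the 79162 at the right summit. The right base matching the left summits had at most 79162, which does not order it against them.

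Of the 9 members 2, SPRRNA.47 and SPRRNA.48, had a summit inside them or at most 500 bp away, against 13.2% of all annotated genes. With 9 genes that share 5 summits this count says little about the members. Within 1000 bp the count was 5, with SPRRNA.49, SPRRNA.43 and SPRRNA.44 added, against 17.7% of all genes. For SPRRNA.46 the nearest summit was 5102 bp away, and for the 5.8S genes it was 4525 bp away in the right array and 3001 and 2998 bp away in the left array.

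The wide rDNA peaks had the greatest pileups of the list. Pileup is the number of ChIP fragments over the summit base, and background is the level expected there from the input, scaled to the ChIP library. At the right summit the pileup was 79162 (exact Poisson 95% interval 78611 to 79715) over a background of 16866. At SPRRNA.47 it was 60888 (60405 to 61374) over 17991, and at SPRRNA.48 it was 60950 (60467 to 61436) over 18077. The pileups at these 28S genes differed by 62 fragments, with intervals that overlapped, and their backgrounds by 0.474%. With identical letters in both left copies, a fragment from either fits both, so these heights are not independent measurements and their likeness is no evidence of agreement. The right pileup was 1.3 times that at SPRRNA.48, with intervals that did not overlap, while its background was 6.70% lower. The right summit lay in the spacer and the left ones in the 28S gene, so different bases of the unit are set side by side. These intervals cover counting error only, and take no account of the limit that duplicate removal puts on such heights.

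The narrow peaks upstream of the 18S genes were far lower. The one beside SPRRNA.43 had a pileup of 14985 (14746 to 15227) over a background of 11220, and the one beside SPRRNA.44 had 14760 (14523 to 15000) over 9519. Pileup at the 28S summits was 4.06 times the first of these and 4.13 times the second. The background was higher at the 28S summits too, by 1.60 and 1.90 times. The caller takes as background the highest of several averages of the input, the widest local one over 10000 bp, and a mean over the genome. The mean input over the 10000 bp around the first narrow peak, nearly a unit, was therefore at most 11220, below the background at either 28S summit.

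**Figure D2:**
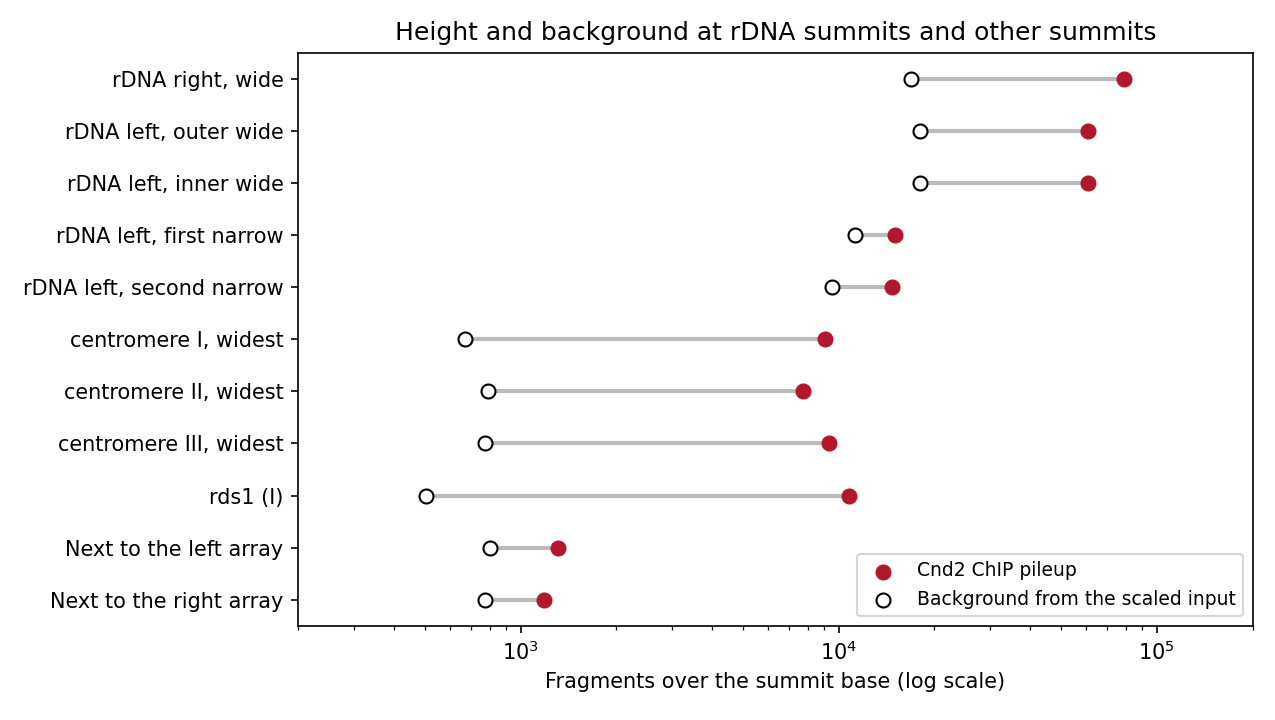
ChIP pileup (filled) and background from the scaled input (open) at the summits of the 5 rDNA peaks, the widest peak of each centromere, the peak at rds1 and the first peaks inwards of the arrays, in fragments over the summit base on a log scale. Both quantities are higher at every rDNA summit than at the others shown, and the distance between them, which is the fold, is widest at rds1.

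Every rDNA summit had a background above that of every other peak. It was 42.5 times the arm median at the right summit, 45.3 and 45.5 times at the 28S summits of the left array, and 28.3 and 24 times at the narrow peaks. The median over 599 summits on the chromosome arms was 397 scaled fragments. The highest background among the other 659 peaks was 1730, and the lowest at an rDNA summit was 5.49 times that. The background is computed from the input alone. More rDNA copies in the cells than in the reference, and more fragments per copy, cannot be told apart in it.

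Measured as fold, which is pileup over background with 1 added to each, the rDNA peaks stood lower in the list. The right peak had 4.69-fold (4.66 to 4.73 from the counting error of the pileup) and rank 39 of 664. SPRRNA.47 and SPRRNA.48 lay under 3.38-fold and 3.37-fold summits, at ranks 78 and 80. The narrow peaks had 1.55-fold beside SPRRNA.44 and 1.34-fold beside SPRRNA.43, at ranks 394 and 521, both below the list's median of 1.72-fold. The header's genome size of 1.87e+09 bp, against 12.6 Mb for the chromosomes, put the genome mean too low to act as a floor. With the length of the chromosomes it was 429 scaled fragments, above the background of 363 of the 599 arm summits and of 0 rDNA summits. With the background held at 429 or above, the right peak ranked 34, the peaks at SPRRNA.47 and SPRRNA.48 ranked 57 and 58, and the narrow ones 327 and 435. By pileup the 5 peaks took ranks 1 to 5. By excess, the pileup minus the background, the wide peaks took ranks 1 to 3, with 62296 fragments on the right and 42897 and 42873 on the left, and the narrow ones ranks 12 and 19. The highest values elsewhere, a pileup of 10745 and an excess of 10240, belonged to the 21.2-fold peak at rds1 on chromosome I.

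**Figure D3:**
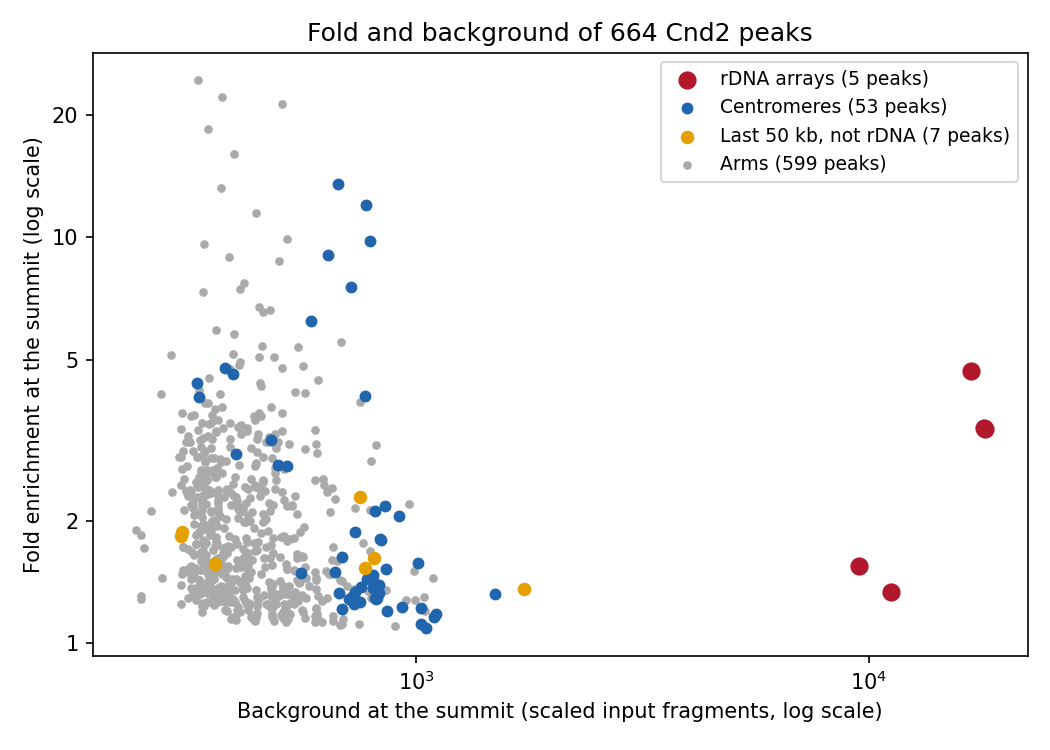
Fold enrichment against background at the summit for 664 peaks, both on log scales, with rDNA, centromere, other chromosome-end and arm peaks in different colours. The 5 rDNA peaks stand alone at backgrounds of 9519 scaled fragments or more with folds of 1.34 to 4.69, and the symbols of both left wide peaks lie on each other.

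The 4 left peaks had higher −log10 q-values than other peaks of like fold. At a given fold this value grows with the number of fragments. The difference therefore follows from the higher backgrounds of these peaks and is no measure of stronger enrichment. The narrow peak beside SPRRNA.43 had a −log10 q of 248 at 1.34-fold, whereas 84 other peaks within 0.05 of that fold had a median of 9.63 and a highest value of 43.8, over a median background of 446. The one beside SPRRNA.44 had 536, against a median of 22.3 and a highest value of 61.8 in 48 peaks of like fold. For SPRRNA.47 and SPRRNA.48 the peaks of like fold, 6 and 9 in number, reached at most 440, and none lay within 0.05 of the fold of the right peak. The wide peaks held the 3 highest values of the list, at 26089, 13605 and 13549, and the highest elsewhere was 9825.

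Duplicate removal puts an upper bound on such heights. The caller kept 1 fragment for each pair of ends, so a base can be covered by no more fragments than there are pairs of ends around it. A pileup of 79162 needs fragments of at least 398 bp, even with every shorter fragment present, and the left wide peaks need at least 349 bp. The fragment length was 208 bp per the file headers. The input is limited in the same way, with backgrounds at the wide summits of 35298 to 37831 fragments before scaling. How far the limit moved the folds of the arrays was not tested.

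The widest centromere peaks were closest to the rDNA peaks in width, and differed from them in fold and background. The right, outer left and inner left wide peaks had width ranks 3, 5 and 6. Ranks 1, 2 and 4 belonged to centromere III (17438 bp), centromere I (17325 bp) and centromere II (12794 bp). The centromere summits had 12-fold, 13.5-fold and 9.79-fold over backgrounds of 772, 671 and 790, at 1.95, 1.69 and 1.99 times the arm median. Their pileups were 9307, 9084 and 7745, all below that of the lower narrow rDNA peak.

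The 5S rRNA genes, which RNA polymerase III reads and which lie scattered outside the arrays, had peaks with lower pileups. Of 36 genes 28 were overlapped by a peak and 21 lay wholly under one, against 11.3% and 2.65% of all annotated genes. The 28 peaks near them had pileups of 621 to 2420 over a median background of 362, and folds of 1.73 to 4.78 with a median of 2.34. The fold of the right rDNA peak and those of both 28S summits fell inside that range, and those of the narrow peaks fell below it. These are descriptions of 1 list, and no difference between the sets was tested.

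Of the motif AGGGTAA, the right spacer held 2 matches, 310 to 316 and 493 to 499 bp past SPRRNA.49, both on the strand of the rRNA and 183 bp apart. Each left spacer held them at 300 to 306 and 483 to 489 bp. The right summit lay 427 and 244 bp beyond the middle of the matches, and the summits of the wide left peaks 615 and 798 bp before it. Both strands were searched, and no matches in the spacers overlapped. Over 2692 windows of 4666 bp across the genome 38.2% held it at least once and 5.16% at least 2 times on 1 strand. The letters shared by both matches ran to 17 bases, shown for III:2447502-2447518 on the plus strand: aggtaAGGGTAAtgcac. They stood 6 times in the genome, all in the 3 spacers of the arrays. The letters were taken from these nearly identical spacers, so their count there follows from that choice. No expected count elsewhere was worked out for them. A match is a description of the letters and no sign of binding.

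For the proteins of rDNA transcription, the nucleolus and condensin, of 28 listed genes 27 were matched by symbol, and 3 of the 27 had a summit inside them or at most 500 bp away, against 15.1% of protein-coding genes. This share, 11.1%, is near that background and is not a result about the list. The genes were tbp1 (TATA-binding protein), with a summit inside the gene at 1.55-fold (pileup 658, background 424), sap1 and gar2. The summit beside sap1, whose protein binds a fork barrier of the rDNA spacer, lay 144 bp from the gene at 2.94-fold (1771 over 602). At gar2, which encodes nucleolin, it lay 335 bp away at 1.37-fold (434 over 317), and the peak did not overlap the gene. None of the 9 genes of RNA polymerase I subunits was near a summit (distances of 5.17 to 24.9 kb), and none of the 5 condensin genes was (3.17 to 17.8 kb).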

How the data were processed

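The deposited file is a list of peaks of the Cnd2 ChIP over its input. The submitters' processing notes name BWA 0.7.12, MACS2 2.1.0 and build ASM294v2. Per the file headers, MACS 2.1.0.20150731 used paired-end fragments, a q-value limit of 0.05, 1 fragment per pair of ends, and input averages over 1000 and 10000 bp, and scaled the larger library down. Its genome size setting was 1.87e+09 bp. Duplicates were 34.7% of the ChIP and 10.4% of the input fragments. How fragments that fit several copies were placed is not given in the sources used here. The deposited pileup is a signal, namely coverage by fragments at the summit, and is unscaled for the ChIP (the input scale was 0.478). The deposited fold enrichment is a ratio of pileup to background, and the deposited p- and q-value columns hold −log10 values. All were used only within this list.

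The background was recovered as pileup plus 1, divided by the fold, minus 1. Recomputing −log10 p from it gave values within 0.0475% of those deposited at the rDNA peaks and within 0.0140 elsewhere. Genes, strands and sequences came from RefSeq ASM294v3, which is newer than the build of the peaks, and no coordinates were converted. To check the match, the annotation was shifted by 500 or 5000 bp either way: 1 to 9 of 171 tRNA genes then had a summit within 100 bp, against 117 unshifted. No peak passed a chromosome end. The motif search had been planned for the authors' build and used the annotated spacers of ASM294v3. Array edges and spacer identities come from pairwise alignments (match 1, mismatch -2, gap opening -4, extension -0.5). Arm summits exclude the last 50 kb and the centromeres, taken on each chromosome as its longest run free of protein-coding genes. The 4 peaks on a sequence named MTR were not used.

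The members, the gene list and the comparisons were chosen with earlier results of these data known. The named genes were the members, other annotated genes under the rDNA peaks, listed genes near a summit, the 5S set and the widest centromere peaks; rds1 and the run of shared bases were added after their values were seen. With 1 library per group there was no test. Background recovery and gene overlap were tested on simulated data. Alternatives were other peak thresholds, distances, overlaps, chromosome-end windows, levels to set the background against and ranking measures. Tools were Python 3.11.15 with biopython 1.88, matplotlib 3.10.9, numpy 2.4.6, scipy 1.17.1 and pandas 2.3.3.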

Additional observations from a re-analysis of the deposited data

How the results depend on the processing

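Of 20 alternative values 12 stayed within 1.5 times the reported count or within 1% of the reported value. With only peaks at or above the median fold, 3 rDNA peaks remained of 5, and the share of the spacers and flanks under peaks was 87.0% in place of 92.9%, because the narrow peaks dropped out; all 9 genes stayed under peaks. Within 1000 bp, 5 rRNA genes were near a summit in place of 2. The median background at rDNA summits was 42.5 times that of arm summits, 31.2 times that of arm summits on III alone and 39.3 times the genome mean of the scaled input. The right peak, 39th by fold, was 1st by pileup and by excess (rank 1 in both). Of the listed genes of rDNA transcription, 1 held a summit inside the gene, in place of 3 within 500 bp. Holding the background at the genome mean or above, an alternative chosen after seeing the data, left all 5 rDNA peaks as they were and put the right peak at rank 34 by fold. No paired analysis was possible because each group has 1 library. Repeat copies with the same bases, 1 library per group and duplicate removal limit all heights in the arrays.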

Other observations

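The spacers and flanks of the arrays also hold 13 annotated long non-coding RNA genes, 201 to 1632 bp long. Of these, 12 lay wholly under the rDNA peaks, and SPNCRNA.1094 lay under one over 89.2% of its length. Over all annotated genes the share wholly under peaks was 2.65%. The peaks covered 94.5% of the left array and 99.4% of the right, so this count says little about these genes. SPNCRNA.1094 was the only annotated gene in the windows besides SPRRNA.47 and SPRRNA.48 to hold a summit, that of the narrow peak beside SPRRNA.44. SPNCRNA.1095 and SPNCRNA.7772 lay 45 and 471 bp from a summit. No value was measured for these RNAs.

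Base composition differed along the unit. The 28S, 18S and 5.8S genes had 47.1%, 45% and 43% GC, the long spacers 30.9%, and the internal spacers 19.7% (between 18S and 5.8S) and 21% (between 5.8S and 28S), against 36.1% over the genome. The summits of the wide left peaks lay in the 28S gene, and those of the narrow left peaks and of the right peak lay outside the rRNA genes. Whether base composition moved the heights was not tested.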
